A study of Mus musculus with 12 samples.

Results

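The 10 genes described here encode elongin proteins and the cullin-RING ubiquitin ligases that are built on or beside them. They are Tceb1 (elongin C), Tceb2 (elongin B), Tceb3 (elongin A), Vhl, Cul2, Cul4a, Cul4b, Ddb1, Vprbp and Rbx1, 10 of the 23230 genes in the deposited table. All 10 were among the 11502 genes that reached 1 FPKM in at least 1 library and were tested. FPKM counts fragments corrected for transcript length and library size. The list was chosen by 1 measured value, the higher level of Tceb1 in Zar1/2-null than in WT MII oocytes, so the level of Tceb1 at MII is described below without a test. The other 9 genes were added as further elongin genes and genes of cullin-RING ligases, including CUL4 ligases, which do not use elongin C as adaptor. They and the pathway lists below were chosen with earlier results of these data known. Their p-values and counts thus do not come from a choice made blind to the data. RefSeq now lists Tceb1, Tceb2, Tceb3 and Vprbp as Eloc, Elob, Eloa and Dcaf1.

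The libraries came from mouse oocytes of a C57BL6/ICR hybrid strain, either wild type (WT) or null for Zar1 and Zar2, which encode oocyte RNA-binding proteins. Null alleles of both genes had been made with CRISPR/Cas9, each in a strain of its own. Each genotype was sampled as growing oocytes from females labelled 13.5 days old (the study's methods give another day), as full-size oocytes with an intact germinal vesicle (GV) from females labelled 21 days old and primed with PMSG for 44 h, and as ovulated oocytes labelled MII and collected 16 h after hCG. The label MII is kept here for both genotypes, but in the study ovulated null oocytes had not completed meiosis I. Genotype and meiotic stage therefore cannot be told apart in any comparison of null with WT oocytes labelled MII. There were 2 libraries for each of the 6 groups, 12 in all, and each library was made from a pool of 10 oocytes. A lower level in every oocyte and loss of the mRNA from some oocytes of a pool therefore cannot be told apart. Nothing states whether the replicates came from different females, so the p-values measure the spread between these libraries, which may be technical.

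Elongin C and elongin B form a stable pair. The pair serves as an adaptor that joins substrate receptors such as VHL to CUL2 or CUL5, and it also binds elongin A, which acts on RNA polymerase II during elongation. CUL4A and CUL4B use a different adaptor, DDB1, which holds receptors of the DCAF family, among them VPRBP (DCAF1). RBX1 is the RING subunit that brings the charged ubiquitin-conjugating enzyme to CUL2 and CUL4 ligases. The cullin is switched on when NEDD8 is attached to it and switched off when the COP9 signalosome removes NEDD8. In mouse oocytes, transcription stops by the end of growth, and many stored mRNAs are degraded while the oocyte matures from GV to MII. CRL4 with DDB1 and VPRBP is known to be needed for oocyte survival and maturation.

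The 3′ ends of 4 of these mRNAs are shown because stored oocyte mRNAs are often controlled through a U-rich cytoplasmic polyadenylation element (CPE) close to the poly(A) signal. Each window is 30 bases of the annotated 3′ UTR, read from the mm9 genome and written on the mRNA strand, with the motif in capitals. Rbx1 and Tceb2 were the members called higher in Zar1/2-null MII oocytes, Tceb1 is the gene the list was chosen for, and Cul4b is an abundant member whose difference at MII did not pass the test.
Tceb1 (CPE letters TTTTAT, chr1:16632858-16632887, minus strand): tcttatgtgtttTTTTATaaactgcagtat
Rbx1 (CPE letters TTTTAAT, chr15:81306760-81306789, plus strand): tttcaaagttaaTTTTAATaaaaatattta
Cul4b (CPE letters TTTTAT, chrX:35884800-35884829, minus strand): tctatttttctccaataaaacTTTTATttt
Tceb2 (poly(A) signal AATAAA, chr17:23961781-23961810, minus strand): acccatttccccAATAAAaaaaatttggct
The CPE letters of Tceb1 ended 23 bases before the annotated transcript end and those of Rbx1 21 bases before it. Tceb1 had no poly(A) signal AATAAA or ATTAAA in its last 100 bases, whereas 80.9% of expressed genes had one. The signal shown for Tceb2 lay 86 bases from the annotated end. In Rbx1 the letters TTTTAAT overlapped a poly(A) signal AATAAA, and in Cul4b the letters TTTTAT lay 3 bases from the end, downstream of the poly(A) signal. Neither TTTTAT nor TTTTAAT was found on the mRNA strand anywhere in the 127 bases of the Tceb2 3′ UTR. Of the 10077 expressed genes with an annotated 3′ UTR, 20.1% had TTTTAT or TTTTAAT in the last 100 bases and 62.8% had either one at any position in the UTR. Letters of this kind are thus common, and a match describes the sequence only.

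The transcripts of the members differed widely in length. Tceb2 (494 bases, chr17:23961707-23965958), Tceb1 (954 bases, chr1:16632847-16646946) and Rbx1 (1655 bases, chr15:81296746-81306799) were the 3 shortest of the 10, against a median of 2940 bases over all expressed genes. Their lengths stood at percentiles 0.347, 4.83 and 19.1. The other 7 members ran from 2792 bases for Vhl (chr6:113573953-113581627) to 7820 bases for Vprbp (chr9:106724205-106785649), with Tceb3 at chr4:135559283-135577678, Cul4a at chr8:13105621-13147940, Cul4b at chrX:35884800-35929373 and Ddb1 at chr19:10680058-10704306. The 3′ UTR of Tceb1 had a GC content of 28.9%, at percentile 1.64 of expressed genes. The coding sequence of Tceb1 matched 2 other places in the genome at 90% identity or more over at least 50% of its length, that of Tceb2 matched 6 and that of Rbx1 matched 1. The authors kept only reads that mapped to a single place, so reads that matched such a copy equally well would have been dropped. The levels of these 3 genes are therefore uncertain in a way that those of the other 7, with 0 such matches, are not.

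The deposited values had been multiplied by a factor from the ERCC spike-in, synthetic RNA added in equal amount to every lysate. The factor, recovered from the values, was 1 in both WT growing libraries, 0.836 and 0.697 at WT GV, 0.225 and 0.228 at WT MII, 0.862 and 0.779 in null growing, 0.533 and 0.583 in null GV and 0.283 and 0.252 in null MII libraries. The study lists unlike ERCC shares for the 2 WT growing libraries, yet both had a factor of 1, so they were not scaled to a common reference. Whether the other factors follow the replicate number was not tested. The study lists the total reads of each library, but no read count per gene was used here. The number of reads behind a gene's value is therefore unknown. Zar1l, the name of Zar2 in the table, was lower in null oocytes at every stage (642 against 15.3 FPKM in growing, 519 against 20.3 at GV and 3.92 against 1.19 at MII, means of 2). Zar1 carries a small deletion, so its level does not check the genotype, and it measured 664 against 433, 431 against 169 and 78.0 against 192 FPKM. The 13 oocyte markers summed to between 4880 and 23505 FPKM and the 13 granulosa and cumulus cell markers to between 4.27 and 26.6 FPKM, with Ptx3 at 0 in every group. The 6 immune markers summed to between 0.458 and 3.08 FPKM. The 6 epithelial and oviduct markers summed to between 2.02 and 19.0 FPKM, except in null growing oocytes, where they summed to 80.4 and 92.7 FPKM. In null growing oocytes only 2 of the 6 averaged 1 FPKM or more, and Krt19 and Krt18 were 0 in both libraries. The sum thus does not stand for the list as a whole, and its part in the growing-stage results was not tested.

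Tceb1 was one of the most abundant mRNAs of the oocyte. It measured 1979.5 and 1648 FPKM in WT growing oocytes, 2357 and 1793 FPKM at WT GV, and 1603 and 1190.4 FPKM in null growing and 1927 and 1533 FPKM in null GV oocytes. In those 8 libraries it ranked between 14 and 41 of 11502 genes. The growing libraries did not overlap between genotypes, while the GV libraries did. The log2 fold change of Tceb1 between null and WT was -0.39 ± 0.26 (SE) in growing oocytes (adjusted p = 0.269, limma with Benjamini-Hochberg adjustment) and -0.26 ± 0.26 at GV (adjusted p = 0.428). At MII Tceb1 measured 69.4 and 49.7 FPKM in the WT libraries and 575 and 383 FPKM in the null libraries. The null mean, 479 ± 136 (SD, n = 2), was 8.04 times the WT mean, 59.6 ± 13.9, and 6.74 times without the ERCC factors. This is the difference for which the list was drawn up.

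**Figure D1:**
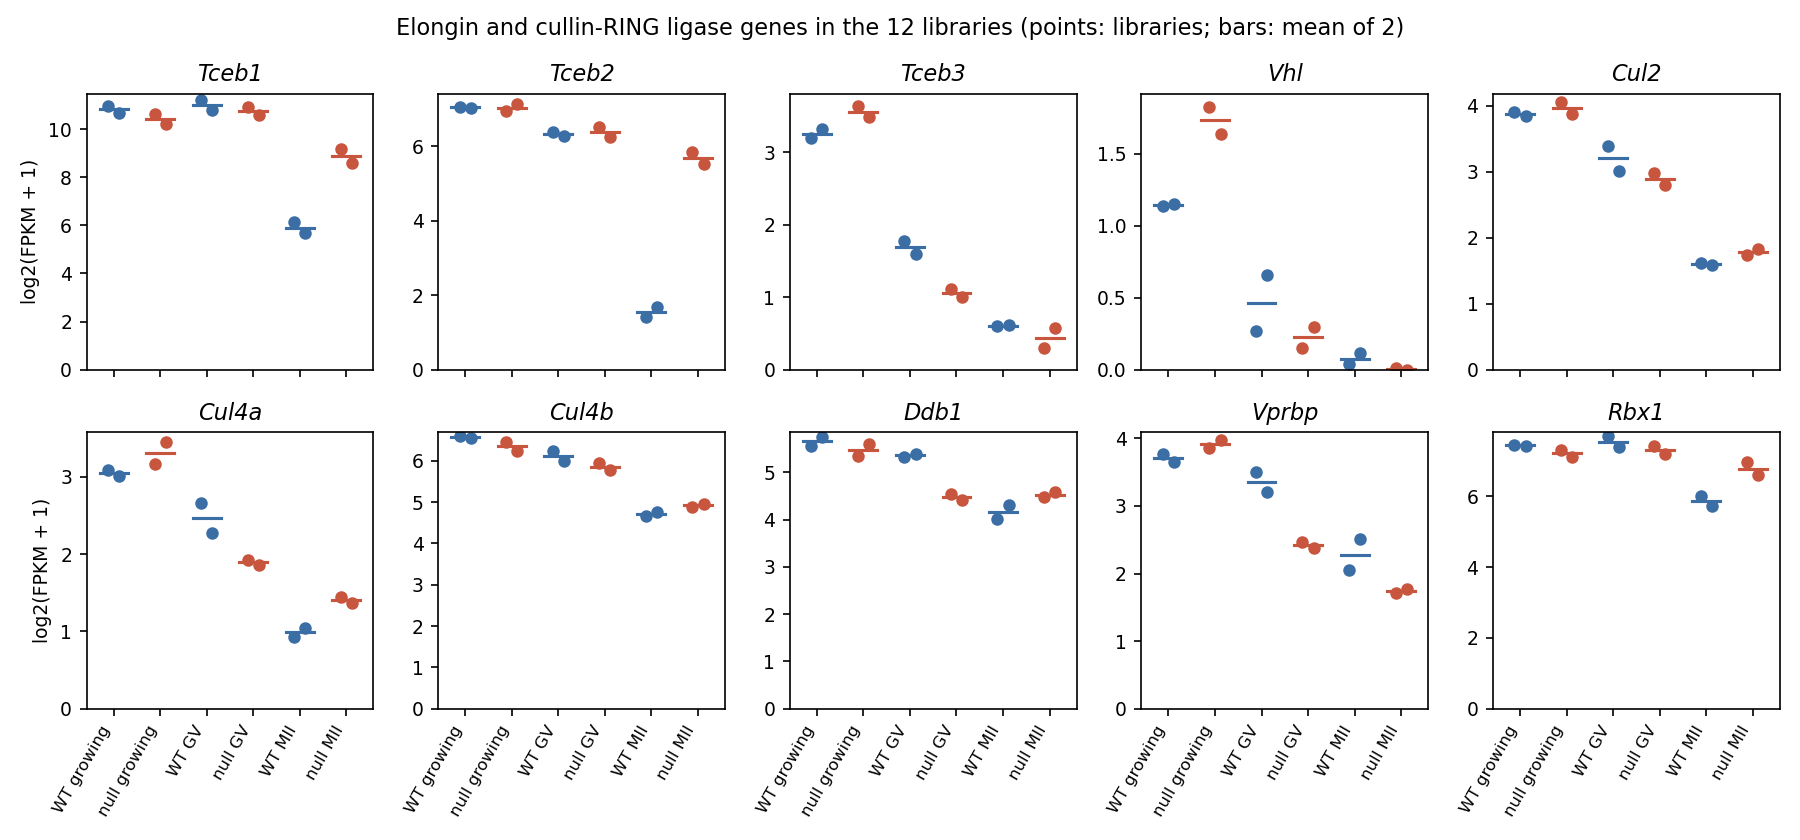
Level of each gene in the 12 libraries on the log2(FPKM + 1) scale, with growing, GV and MII oocytes from left to right, WT in blue and Zar1/2-null in red. Points are libraries and bars are means of 2. Tceb1 and Tceb2 stand out by their low WT MII libraries (69.4 and 49.7, 1.66 and 2.22 FPKM), while Vhl stays under 3 FPKM throughout.

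Tceb2, the partner of Tceb1 in the elongin BC pair, showed the largest genotype difference among the other 9 members. It measured 132 and 131 FPKM in WT growing and 122 and 139 FPKM in null growing oocytes, and 83.2 and 76.5 FPKM in WT GV and 91.2 and 74.7 FPKM in null GV oocytes. The genotypes overlapped at both stages. At MII it measured 1.66 and 2.22 FPKM in WT and 56.6 and 45.3 FPKM in null oocytes, 26.3 times as much on the mean. The log2 fold change was 4.14 ± 0.17 (SE), with an adjusted p of 1.09e-08 from limma, and it stayed between 3.98 and 4.65 under all 20 alternative settings. Within the library, Tceb2 ranked 4670 and 4363 of 11502 genes in WT MII oocytes and 607 and 640 in null MII oocytes. A rank does not depend on the ERCC factor.

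Tceb3, the elongin A subunit, was present at lower levels. It measured 8.17 and 8.98 FPKM in WT growing and 11.5 and 10.2 FPKM in null growing oocytes, then 2.44 and 2.03 FPKM in WT GV and 1.16 and 1.00 FPKM in null GV oocytes. The GV libraries did not overlap, and Tceb3 was lower in null GV oocytes (log2 fold change -0.63 ± 0.14, adjusted p = 0.00441, limma). At MII all 4 libraries were under 1 FPKM, at 0.519 and 0.529 in WT and 0.232 and 0.491 in null oocytes.

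Rbx1, the RING subunit, had the pattern over the 12 libraries nearest to that of Tceb1 among the members averaging 10 FPKM or more. It measured 174 and 172 FPKM in WT growing, 158 and 137 FPKM in null growing, 207 and 166 FPKM in WT GV and 169 and 144 FPKM in null GV oocytes. The null growing libraries lay below both WT libraries, but the difference did not pass the test (adjusted p = 0.367, limma). At MII Rbx1 measured 63.7 and 52.0 FPKM in WT and 123 and 96.0 FPKM in null oocytes, with no overlap. It was 1.90 times as high in null oocytes (log2 fold change 0.91 ± 0.19, adjusted p = 0.00288, limma). Without the ERCC factors the ratio of means was 1.60, and the call held under all 20 alternative settings, with adjusted p between 0.000318 and 0.0335.

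None of the 3 cullins passed the test between genotypes at MII. Cul2, the cullin of elongin BC ligases, measured 2.08 and 2.00 FPKM in WT MII and 2.33 and 2.55 FPKM in null MII oocytes (log2 fold change 0.18 ± 0.15, adjusted p = 0.455, limma). Cul4b, the more abundant of the CUL4 pair, measured 24.1 and 26.1 FPKM in WT and 28.6 and 30.2 FPKM in null MII oocytes (0.22 ± 0.15, adjusted p = 0.313). Cul4a measured 0.908 and 1.07 FPKM in WT and 1.71 and 1.57 FPKM in null MII oocytes, without overlap, and missed the threshold (0.41 ± 0.16, adjusted p = 0.0708). At GV Cul4a was lower in null oocytes, at 2.80 and 2.63 FPKM against 5.34 and 3.81 FPKM (-0.57 ± 0.16, adjusted p = 0.0134). That call was lost without WT GV replicate 1 (adjusted p = 0.124) and without null GV replicate 2 (adjusted p = 0.0531, limma). Cul2 and Cul4b at GV had log2 fold changes of -0.31 and -0.25 and did not pass the test.

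Ddb1, the CUL4 adaptor, was lower in null oocytes at GV and did not pass the test at the other two stages. It measured 39.3 and 40.7 FPKM in WT GV and 22.2 and 20.3 FPKM in null GV oocytes, 53.2% of the WT mean (log2 fold change -0.88 ± 0.16, adjusted p = 0.00124, limma). In growing oocytes it measured 46.0 and 53.0 FPKM in WT and 39.7 and 47.1 FPKM in null oocytes, which overlapped. At MII it measured 15.2 and 18.8 FPKM in WT and 21.2 and 22.8 FPKM in null oocytes (0.36 ± 0.16, adjusted p = 0.111). Thus on the ERCC-scaled values the null level at MII was close to that at null GV, while the WT level was lower at MII than at GV. Without the ERCC factors Ddb1 was higher at MII than at GV in both genotypes. The log2 changes were then 0.51 in WT (adjusted p = 0.0300, limma) and 1.09 in null oocytes (adjusted p = 0.000398).

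Vprbp, the DDB1-bound receptor DCAF1, was lower in null oocytes at GV and at MII. It measured 10.4 and 8.27 FPKM in WT GV and 4.53 and 4.18 FPKM in null GV oocytes (log2 fold change -0.94 ± 0.17, adjusted p = 0.00135, limma). At MII it measured 3.16 and 4.68 FPKM in WT and 2.27 and 2.42 FPKM in null oocytes (-0.54 ± 0.17, adjusted p = 0.0299). The MII call was lost without WT MII replicate 2 (adjusted p = 0.252), without null MII replicate 1 (0.140) or without null MII replicate 2 (0.0915). The difference was larger without the ERCC factors (-0.88, adjusted p = 0.00265, limma) and with median scaling (-1.03, adjusted p = 0.000327). In growing oocytes Vprbp measured 12.6 and 11.5 FPKM in WT and 13.5 and 14.7 FPKM in null oocytes and did not pass the test.

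Vhl, the receptor that directs CUL2 to hydroxylated HIF-1α, was near the lower limit of the data. It measured 1.20 and 1.22 FPKM in WT growing and 2.55 and 2.11 FPKM in null growing oocytes, and was higher there (log2 fold change 0.59 ± 0.14, adjusted p = 0.00882, limma). The call was lost with a pseudocount of 0.1 FPKM instead of 1 FPKM. At GV it lay between 0.110 and 0.579 FPKM and at MII between 0 and 0.0823 FPKM, being listed at 0 in 1 null MII library. No fold between genotypes is therefore given in the text for those stages. The changes of Vhl between stages given below rest in part or in full on these values under the 1 FPKM pseudocount.

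**Figure D2:**
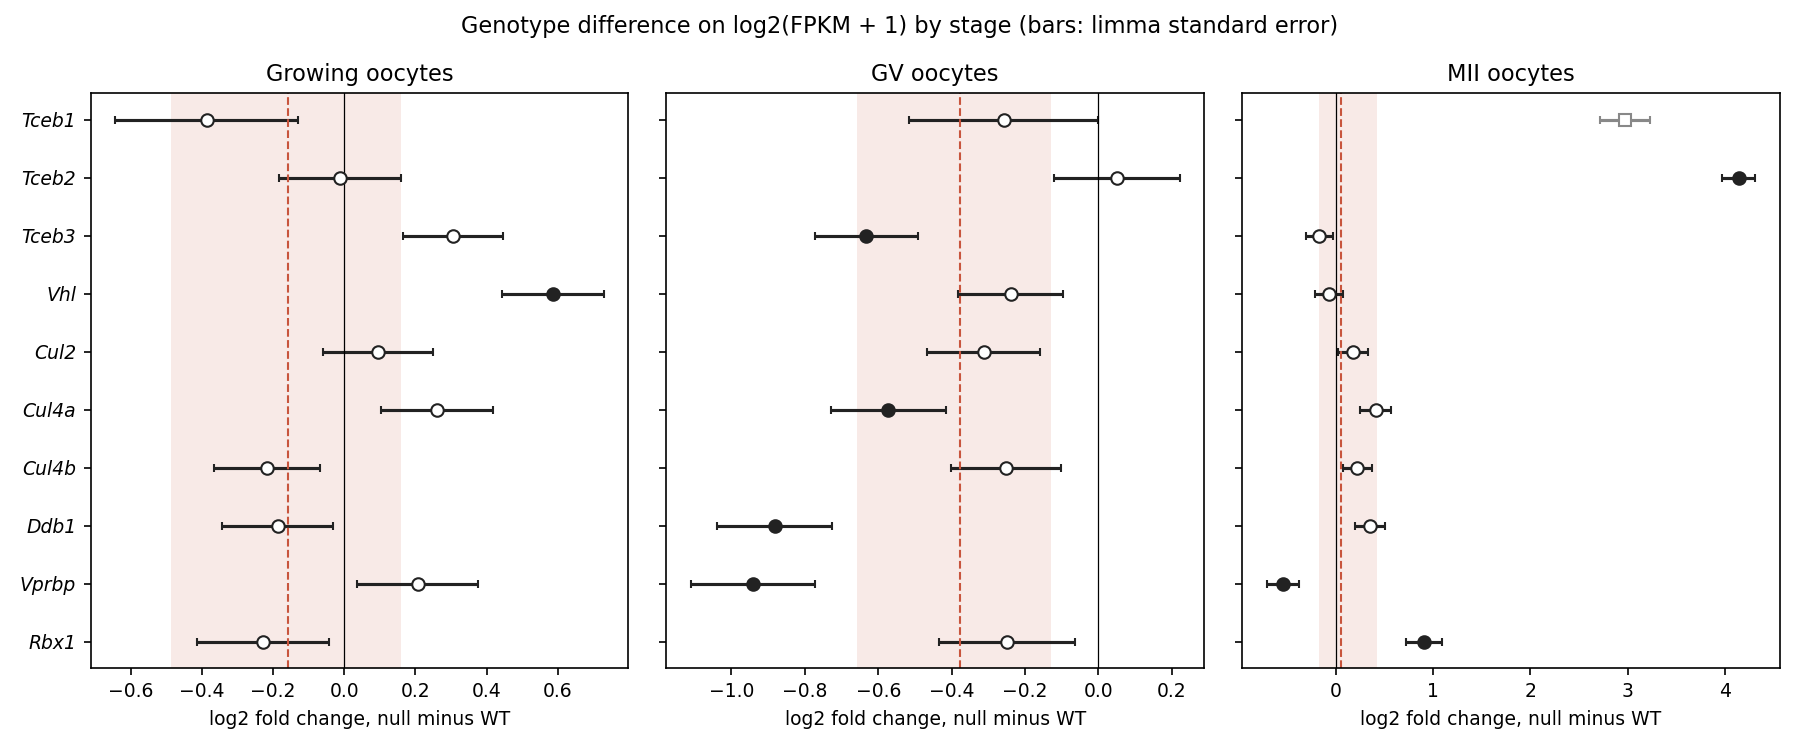
Log2 fold change on the log2(FPKM + 1) scale, Zar1/2-null minus WT, at each stage, with bars for the limma standard error. Filled circles passed an adjusted p of 0.05, open circles did not, and the grey square is Tceb1 at MII, which was not tested. The dashed line and the band are the median and the quartiles of all 11502 genes. Tceb2 at MII (4.14) lies far to the right of the band, and Ddb1 (-0.88) and Vprbp (-0.94) lie to its left at GV. The horizontal scale differs between panels.

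Counted over the members, 1 of 10 was higher and 0 lower in null growing oocytes, when 10.6% of all genes tested were called higher and 24.4% lower. At GV 4 of 10 were lower (Tceb3, Cul4a, Ddb1 and Vprbp) and 0 higher, when 40.6% of all genes were called lower and 2.83% higher. The share of members lower at GV was thus near the background. At MII 2 of the 9 members other than Tceb1 were higher (Tceb2 and Rbx1) and 1 lower (Vprbp), when 21.5% of all genes were called higher and 10.3% lower. The median log2 fold change of the members was 0.04 in growing oocytes, -0.29 at GV and 0.22 at MII (9 members), beside -0.16, -0.38 and 0.06 for all genes. Counted by libraries that did not overlap, 4 members were higher and 3 lower in null growing oocytes (22.4% and 47.4% of all genes), 0 higher and 6 lower at GV (6.79% and 63.6%), and of the 9 other than Tceb1, 6 were higher and 3 lower at MII (43.5% and 27.8%). By a rule of 3-fold between means with a floor of 1 FPKM, 0 members passed in growing and GV oocytes, and Tceb2 was the 1 member besides Tceb1 that passed at MII. That rule called 7.49% of all genes higher and 1.32% lower at MII, 0.461% and 4.2% at GV and 0.982% and 3.54% in growing oocytes.

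The GV calls depended on the ERCC factors. The median gene stood at -0.38 on the log2 scale between null and WT GV oocytes, and at -0.03 when the factors were divided out. The share of all genes called lower there was 13.5% without the factors. Without the factors 0 of the 10 members were called at GV, and the log2 fold changes were -0.58 for Vprbp (adjusted p = 0.0545, limma) and -0.45 for Ddb1 (adjusted p = 0.115). With each library scaled to a common median, Tceb2 was the 1 member called at GV, and it was higher (0.64, adjusted p = 0.0181, limma). At MII the median gene stood at 0.06 with the factors and at -0.01 without them.

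From the growing to the GV stage, Tceb1 and Rbx1 were the members that passed the test in neither genotype. Their log2 changes were 0.19 and 0.10 in WT and 0.31 and 0.08 in null oocytes. In null oocytes both were called higher without the ERCC factors (0.87, adjusted p = 0.00918, for Tceb1 and 0.63, adjusted p = 0.00763, for Rbx1, limma) and with median scaling (1.08 and 0.84). A total of 6 members fell in WT oocytes (Tceb2, Tceb3, Vhl, Cul2, Cul4a and Cul4b), when 28.7% of all genes were called lower and 2.77% higher. Without the ERCC factors or with median scaling, Tceb3 was the 1 member still called lower, when 3.23% and 2.29% of all genes were. Leaving out WT growing replicate 1 or 2 or WT GV replicate 2 brought the count to 2. In null oocytes 8 of 10 fell, every member except Tceb1 and Rbx1, when 55.9% of all genes were called lower and 4.76% higher. Without the ERCC factors 5 were lower and 2 higher (21.3% and 14.3% of all genes), and with median scaling 4 were lower and 2 higher (14.1% and 19.5%). Tceb3 fell by 1.57 in WT and by 2.51 in null oocytes on the log2 scale (adjusted p = 0.000174 and 9.24e-07, limma). The test of the difference between the genotypes in this step called 4 of 10 members, all with the steeper fall in null oocytes, when 11.3% of all genes were called in that direction and 2.58% in the other. They were Vprbp (-1.15 ± 0.24, adjusted p = 0.0126), Tceb3 (-0.94 ± 0.20, adjusted p = 0.0133), Cul4a (-0.83 ± 0.22, adjusted p = 0.0333) and Vhl (-0.83 ± 0.20, adjusted p = 0.0243). Without the ERCC factors only the call of Vprbp was left of these 4 (adjusted p = 0.0460, limma), and with median scaling 0.

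From GV to MII, 9 of the 9 members other than Tceb1 fell in WT oocytes, when 93.4% of all genes were called lower. In null oocytes 7 of 9 fell, when 68.7% of all genes were called lower and 0.209% higher. Vhl and Ddb1 did not pass there, with log2 changes of -0.22 and 0.05. The sign of this step in WT oocytes rested on the ERCC scaling for most members. It turned for Cul4b, Ddb1, Vprbp and Rbx1 when the factors were divided out, and with median scaling for Tceb3, Cul2 and Cul4a too. With the factors divided out 2 of 9 were called in WT oocytes, Tceb2 lower with a log2 change of -3.47 and Ddb1 higher with one of 0.51, when 47.6% of all genes were called lower and 19.7% higher. In null oocytes none of the 7 members that had fallen was still called lower. Ddb1 (1.09), which had not passed before, and Rbx1 (0.54), which had been lower, were then called higher, when 40.5% of all genes were called lower and 19.5% higher.

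The share of the GV level that was found at MII differed between members and genotypes. In WT oocytes it was 2.43% for Tceb2 and 2.87% for Tceb1, then 21.6% for Cul4a, 23.5% for Tceb3, 24.7% for Cul2, 31.0% for Rbx1, 36.8% for Cul4b, 42.0% for Vprbp and 42.6% for Ddb1. Among the 3921 genes that reached 10 FPKM in both GV groups the median share was 16.9% in WT and 36.3% in null oocytes. In null oocytes the share was 27.7% for Tceb1, 33.4% for Tceb3, 37.9% for Cul2, 51.6% for Cul4b, 53.8% for Vprbp, 60.4% for Cul4a, 61.4% for Tceb2, 70.2% for Rbx1 and 103% for Ddb1. Among those 3921 genes, Tceb2 moved from percentile 15.0 in WT to 69.1 in null oocytes, and Ddb1 from 76.2 to 97.2. Tceb1, with the same low share as Tceb2 in WT, moved from percentile 17.3 to 41.3.

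**Figure D3:**
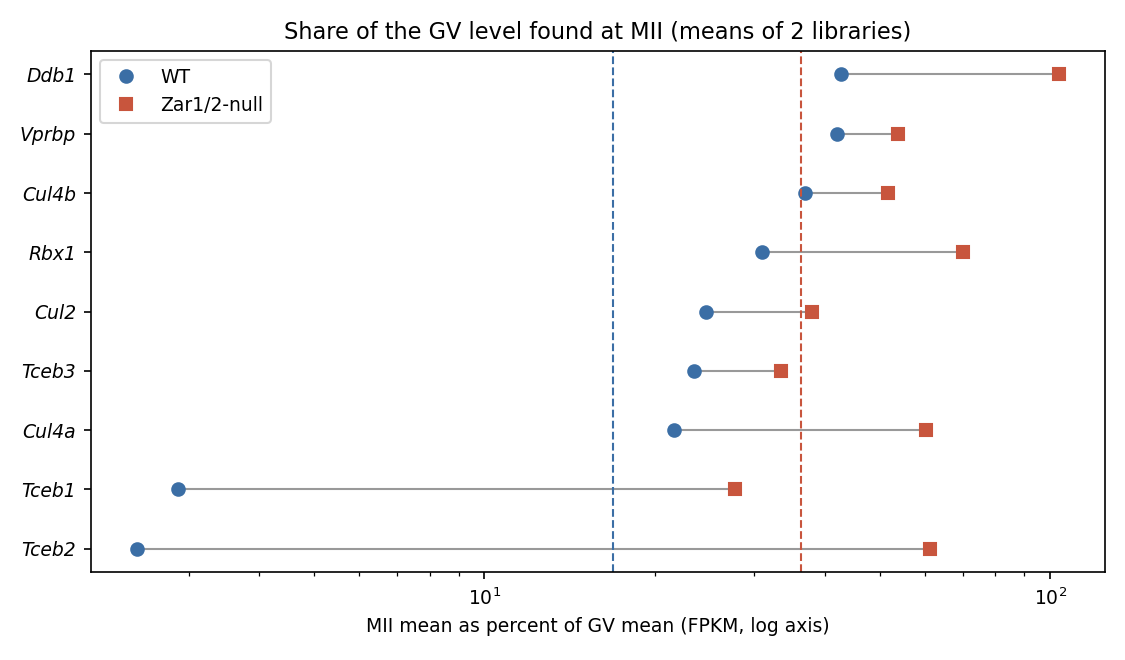
Mean FPKM at MII as a percent of the mean at GV, on a log axis, for WT (blue circles) and Zar1/2-null (red squares) oocytes, 2 libraries per mean. Dashed lines are the medians of 3921 genes, 16.9% in WT and 36.3% in null oocytes. Tceb2 spans the widest gap, from 2.43% to 61.4%. Vhl is left out because it was under 1 FPKM at both stages.

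The difference between the genotypes in the step from GV to MII was tested as an interaction. It was called for 4 of the 9 members other than Tceb1, all with more left in null oocytes, when 33.9% of all genes were called in that direction. Tceb2 had an interaction of 4.09 ± 0.24 on the log2 scale (adjusted p = 3.87e-07, limma), Ddb1 of 1.24 ± 0.22 (adjusted p = 0.00157), Rbx1 of 1.16 ± 0.26 (adjusted p = 0.00660) and Cul4a of 0.98 ± 0.22 (adjusted p = 0.00655). The median over the 9 members was 0.49, beside 0.48 over all genes. The calls for Ddb1, Rbx1 and Cul4a were lost without the ERCC factors and with median scaling, while that for Tceb2 was kept.

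Ratios of members within a library do not depend on the ERCC factor. The Tceb1 to Rbx1 ratio was 11.4 and 10.8 at WT GV and 11.4 and 10.7 at null GV. It was 1.09 and 0.956 at WT MII and 4.66 and 3.99 at null MII. The MII ratios hold the Tceb1 values by which the list was chosen and are given as a description. The Tceb1 to Tceb2 ratio was 28.3 and 23.5 at WT GV and 21.1 and 20.5 at null GV, then 41.9 and 22.4 at WT MII and 10.2 and 8.47 at null MII.

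Within the CUL4 complex, the Ddb1 to Cul4b ratio was 0.531 and 0.651 at WT GV and 0.369 and 0.376 at null GV. It was 0.632 and 0.721 at WT MII and 0.740 and 0.754 at null MII, so the null libraries were the lower ones at GV and the higher ones at MII. The Ddb1 to Vprbp ratio was 4.82 and 4.02 at WT MII and 9.34 and 9.43 at null MII. In the growing libraries this ratio was 3.64 and 4.60 in WT and 2.95 and 3.20 in null oocytes. The Cul4b to Cul4a ratio was at least 7.52 in all 12 libraries and reached 26.6 at WT MII. No test was made on these ratios.

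**Figure D4:**
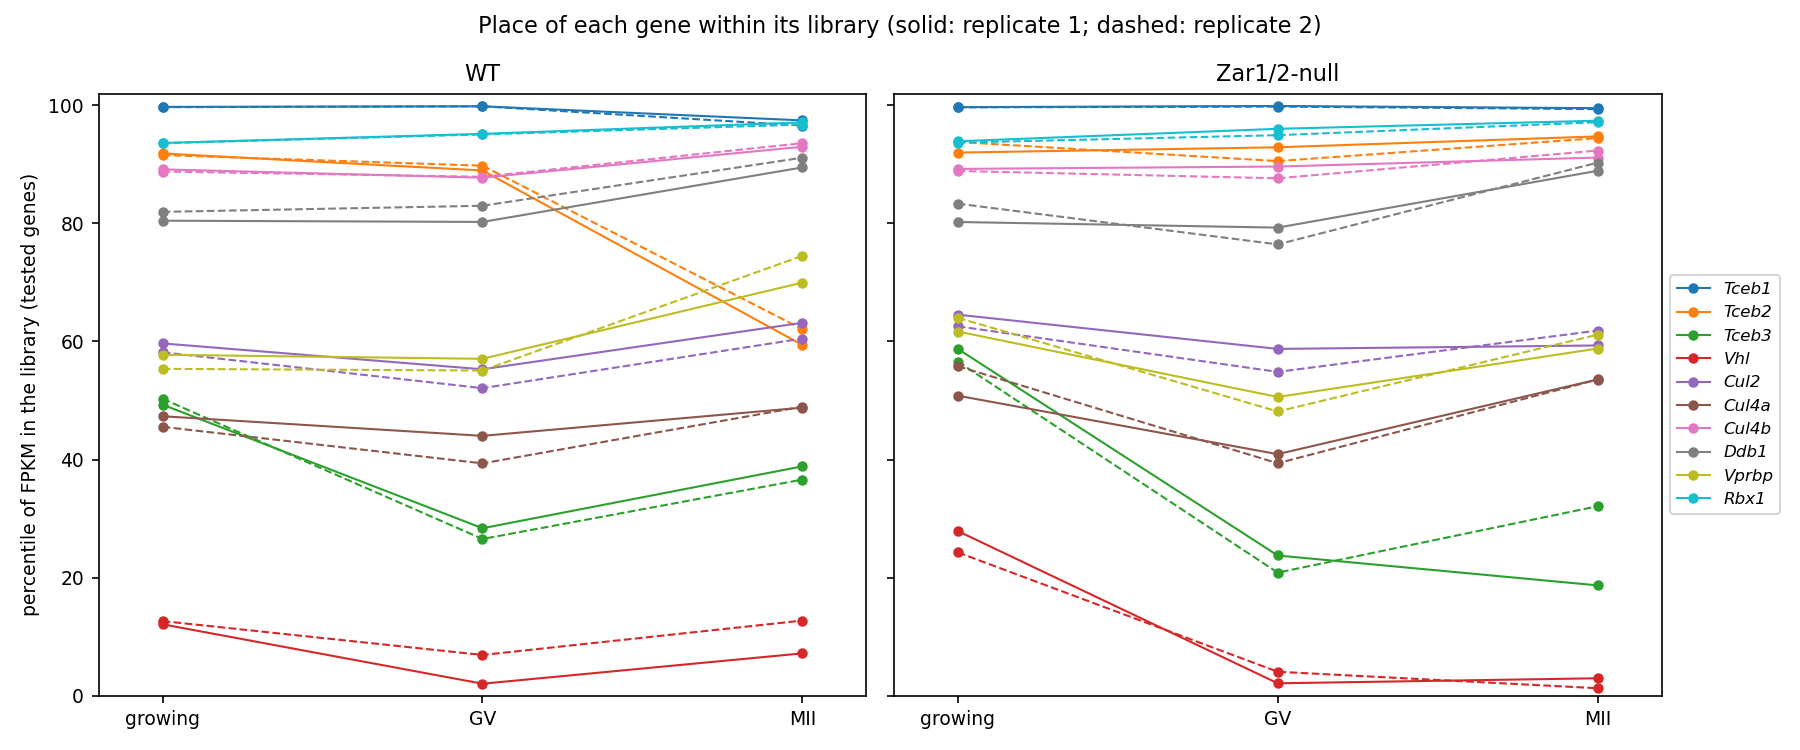
Percentile of each gene's FPKM among the 11502 genes of its own library, for WT (left) and Zar1/2-null (right) oocytes, with replicate 1 solid and replicate 2 dashed. Percentiles are not affected by the ERCC factor. Tceb2 drops to percentile 59.4 in WT MII replicate 1 but stands at 94.7 in null MII replicate 1, while Tceb1 and Rbx1 stay near the top in both genotypes.

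The genes whose pattern over the 12 libraries was most like that of Tceb1 were Polr2g (Pearson r = 0.999), Mrps33 (0.999), 1300002E11Rik (0.997), Rpl32 (0.996) and Rpl36a (0.996), among 4325 genes averaging 10 FPKM or more. Polr2g encodes a subunit of RNA polymerase II, Mrps33 a protein of the mitochondrial ribosome and Rpl32 and Rpl36a proteins of the cytoplasmic ribosome. As many as 485 of the 4325 genes had an r above 0.95, and the 12 libraries share the stage and genotype groups and the ERCC factors, so the values are a description. Of the members, Rbx1 ranked 59 (r = 0.988) and Tceb2 472 (r = 0.952), while Cul4b ranked 1715 and Ddb1 3318. Polr2g went from 37.5 FPKM in WT MII to 151 FPKM in null MII oocytes, and Rpl36a from 2.13 to 80.3 FPKM (means of 2).

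Beyond the members, 108 genes of the pathway were placed in 9 lists by role, with earlier results of these data known. Of these genes, 93 were tested. In growing oocytes 7 were higher and 17 lower in null oocytes (10.6% and 24.4% of all genes), and at GV 2 were higher and 45 lower (2.83% and 40.6% of all genes). At MII 23 were higher and 15 lower (21.5% and 10.3% of all genes). These shares of all genes are the background for each list below, and with 6 to 21 genes tested in a list a count near them says nothing about the list. The median log2 fold change at MII was 0.03 over the 93, beside 0.06 over all genes. The pathway values and calls below are all ERCC-scaled. Without the ERCC factors 13.5% of all genes, not 40.6%, were called lower at GV. Whether the GV calls of the pathway genes hold without the factors is not shown here.

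The COP9 signalosome, which removes NEDD8 from cullins, had 5 of its 9 genes higher and 1 lower in null MII oocytes, when 21.5% of all genes were higher and 10.3% lower. The median over the 9 was 1.49 on the log2 scale, beside 0.06 for all genes. Cops7a measured 2.13 and 2.30 FPKM in WT and 29.1 and 24.5 FPKM in null MII oocytes (log2 fold change 3.11, adjusted p = 3.38e-07, limma). Cops3 measured 4.58 and 4.94 FPKM in WT and 17.2 and 15.6 FPKM in null MII oocytes (1.59, adjusted p = 6.84e-05). Cops5, which carries the catalytic site, Cops6 and Gps1 were higher by 1.55, 1.99 and 1.49 (adjusted p = 0.000150, 3.37e-06 and 4.98e-05, limma). Cops6 did not meet the rule of level and library overlap by which most pathway genes were named. Cops2 was the lower one, at 11.2 and 11.8 FPKM in WT and 6.86 and 5.73 FPKM in null MII oocytes (-0.79, adjusted p = 0.0233). At GV Cops7a, Gps1 and Cops8 were lower in null oocytes and 0 of the 9 were higher, when 40.6% of all genes were lower.

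Of the NEDD8 pathway, 3 of the 13 genes tested were higher and 3 lower in null MII oocytes, when 21.5% of all genes were higher and 10.3% lower. Nedd8, the modifier itself, measured 19.9 and 19.2 FPKM in WT and 200 and 175 FPKM in null MII oocytes (log2 fold change 3.19, adjusted p = 3.00e-08, limma). Dcun1d1, a ligase co-factor for NEDD8, was lower at MII (63.3 against 42.9 FPKM, means of 2) and in growing oocytes (208 against 135 FPKM). It was lower at GV too (log2 fold change -0.52). The MII and GV calls only just passed the threshold (adjusted p = 0.0498 and 0.0480, limma). At GV 7 of the 13 were lower and 0 higher (40.6% of all genes were lower), among them Dcun1d5, Senp8 and Ube2f, an E2 enzyme for NEDD8. At MII Ube2f was higher (log2 fold change 0.85, adjusted p = 0.00696, limma), while Senp8 was again lower (-0.71, adjusted p = 0.0204).

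Among the other cullins and adaptors, Rnf7, the RING subunit that pairs with CUL5, measured 1.30 and 1.19 FPKM in WT and 13.6 and 11.0 FPKM in null MII oocytes (log2 fold change 2.56, adjusted p = 3.11e-07, limma). Cul5 was lower in null oocytes in growing (32.7 against 20.6 FPKM) and at GV (19.5 against 11.2 FPKM). It was lower at MII too (log2 fold change -0.98, adjusted p = 0.00281, limma). Of the 9 CUL2 receptors tested, 2 were higher (Klhdc3 and Klhdc2) and 1 lower at MII (21.5% and 10.3% of all genes), and 6 were lower at GV (40.6% of all genes), among them Lrr1 (267 against 167 FPKM) and Appbp2 (20.1 against 8.92 FPKM). Of the 14 CUL5 receptors tested, 3 were lower and 0 higher at MII, when 10.3% of all genes were lower and 21.5% higher. Of the 21 CUL4 receptors, 6 were higher and 2 lower at MII (21.5% and 10.3% of all genes), and 8 were lower and 0 higher at GV (40.6% and 2.83% of all genes), among them Dtl, Dcaf7 and Brwd1. The CUL4 receptor counts were near the background.

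Hif1a, whose protein is the best known target of VHL, was lower in null oocytes at all 3 stages, by 0.59, 0.97 and 0.57 on the log2 scale in growing, GV and MII oocytes. Its means were 108, 77.5 and 45.7 FPKM in WT and 71.4, 39.5 and 30.7 FPKM in null oocytes. Tet3, a DNA dioxygenase that CRL4 with VPRBP is known to modify, was lower at GV (55.1 against 29.0 FPKM). On the ERCC-scaled values Ppp2r1a, the phosphatase scaffold known as a target of the same ligase, was lower at GV (40.6 against 26.9 FPKM). It was higher at MII (18.0 against 28.2 FPKM). Whether this change of direction holds without the ERCC factors is not shown here. The related gene Ppp2r1b was lower at both GV and MII (log2 fold change -0.88 and -0.60, adjusted p = 0.00146 and 0.0134, limma). Of the 6 CRL4 substrate genes tested, 1 was higher and 4 lower at GV (2.83% and 40.6% of all genes). At MII 2 were higher and 1 lower (21.5% and 10.3% of all genes). Of the 9 RNA polymerase II elongation factors, Supt4h1 was higher at MII by 2.15 on the log2 scale (adjusted p = 8.12e-06, limma), and Tcea1 was lower at all 3 stages, by 0.60, 0.67 and 0.71.

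**Figure D5:**
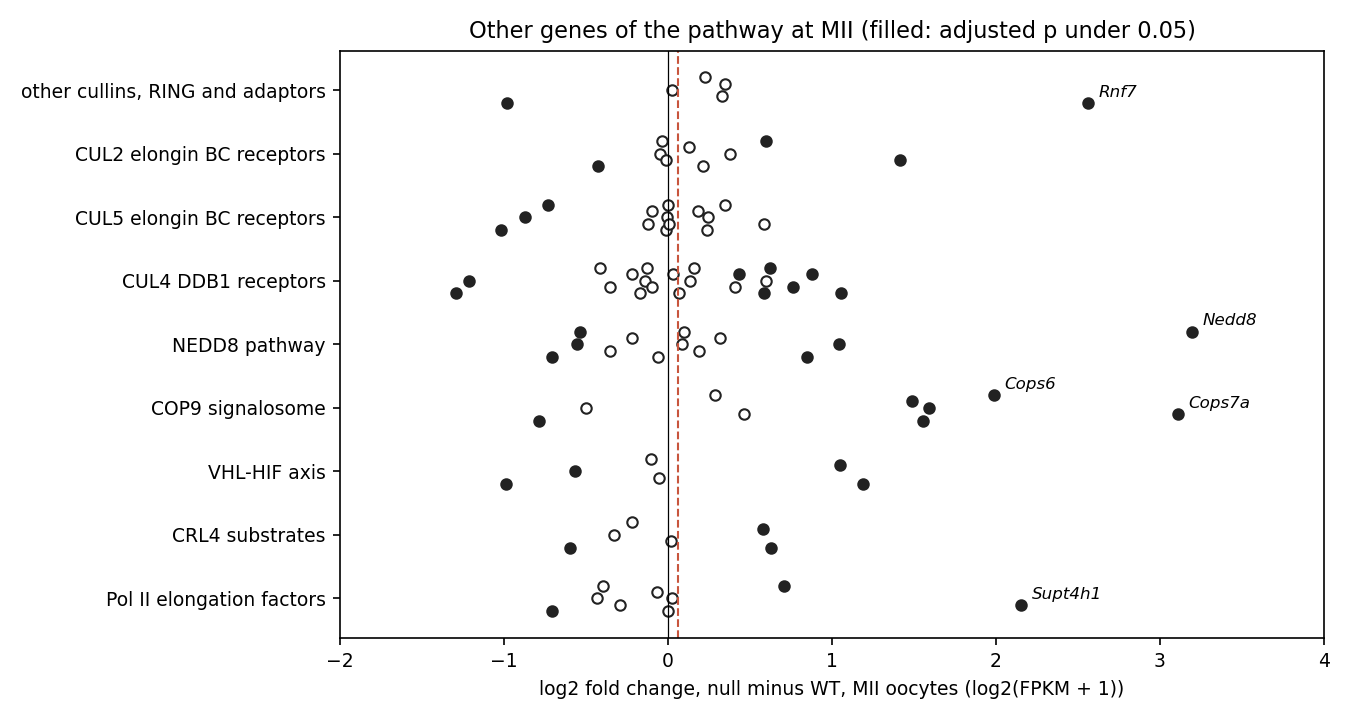
Log2 fold change at MII, Zar1/2-null minus WT on the log2(FPKM + 1) scale, of the 93 tested pathway genes by list. Filled points passed an adjusted p of 0.05 and the dashed line is the median of all genes. Nedd8 (3.19), Cops7a (3.11) and Rnf7 (2.56) lie farthest to the right, and the COP9 signalosome has 5 of 9 genes called higher.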

How the data were processed

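RNA was measured by Smart-seq2 sequencing of 12 libraries of 10 oocytes. The authors aligned reads to mm9 with TopHat2 2.1.1, kept those mapped to one place, computed FPKM with Cufflinks 2.2.1 (versions from the submitters' processing notes) and multiplied the deposited FPKM values by an ERCC spike-in factor. Coordinates and transcripts are from mm9 with GENCODE vM1. All columns were used (0 unmapped). Of the 23230 genes, the 11502 that reached 1 FPKM in any library were tested on log2(FPKM + 1) with limma 3.58.1 (R 4.3.3), which had 1 mean per group, all 12 libraries in one fit, eBayes with trend and Benjamini-Hochberg adjustment at 0.05 over all genes. Fold changes of low genes are understated on this scale. The script was tested on simulated data. The members and lists were chosen with earlier results of these data known. Named genes were the members, Zar1, Zar1l and the 5 genes most like Tceb1. For each list and stage at most 3 called genes were added, starting with the largest change in each direction. Each of these called genes had a higher group averaging 10 FPKM or more and libraries that did not overlap. Cul5, Gps1, Senp8 and Ube2f at MII, Dcun1d1 at GV, and Cops5, Cops6, Ppp2r1b and Gm15698 were named after their values were seen. Contrasts of Tceb1 at MII were not tested. Alternatives were no ERCC scaling, median scaling, a pseudocount of 0.1 FPKM, a mean over 5 FPKM, no filter, no trend, a replicate block, the compared groups alone and leaving out each library.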

Additional observations from a re-analysis of the deposited data

Results flagged for a closer look

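The genotype difference changed between stages, by an interaction test in limma, for the following members. Between growing and GV oocytes the difference moved down in null oocytes by a log2 interaction of -1.15 for Vprbp, -0.94 for Tceb3, -0.83 for Cul4a and -0.83 for Vhl. Between GV and MII oocytes it moved up by 4.09 for Tceb2, 1.24 for Ddb1, 1.16 for Rbx1 and 0.98 for Cul4a. Cul4a is in both sets, with opposite signs. Both tests use the same GV libraries, so the pair of values is not independent. The interaction of Vhl rests on GV values under the pseudocount of 1 FPKM. Of the calls between growing and GV, only that for Vprbp was left without the ERCC factors, and none with median scaling. Under either change of scaling the calls between GV and MII were lost for Ddb1, Rbx1 and Cul4a and kept for Tceb2. Leaving out any 1 library, the call between GV and MII was kept for these 4 genes. The call between growing and GV was lost for Cul4a without any of 10 of the 12 libraries, for Vhl without WT growing replicate 1 or null GV replicate 1, and for Vprbp without WT GV replicate 1 (adjusted p = 0.0505).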

How the results depend on the processing

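The number of members called moved most with the scaling. Without the ERCC factors it went from 1 to 2 for null against WT growing oocytes, from 4 to 0 at GV, from 6 to 1 for WT growth to GV, from 9 to 2 for WT GV to MII, from 7 to 2 for null GV to MII, from 4 to 1 for the interaction of growing and GV and from 4 to 1 for that of GV and MII. With median scaling these were 1 at GV, 1 for WT growth, 0 for the first interaction and 1 for the second. With genes of at least 5 FPKM on average, where Tceb3, Vhl and Cul4a are not tested, they were 0 in growing oocytes, 2 at GV, 3 for WT growth, 5 for null growth (against 8) and 1 for the first interaction. A pseudocount of 0.1 FPKM gave 0 in growing oocytes and 1 for the first interaction, no filter gave 2 for it, and the compared groups alone gave 3 for WT growth and 2 for the first interaction. Leaving out 1 library gave 2 to 6 calls for WT growth (2 without WT growing replicate 1 or 2 or WT GV replicate 2) and 2 to 4 for the first interaction (2 without WT growing, WT GV or null GV replicate 1). The count at MII (3) stayed within 1.5 times under every alternative run. Why the counts moved was not tested. A sign change was counted where either value passed the threshold. For growing to GV in null oocytes, median scaling turned Tceb2 to 0.11 and Cul4b to 0.26, and no ERCC scaling turned Cul4b to 0.056. For WT GV to MII, median scaling gave 0.46 for Tceb3, 0.64 for Cul2, 0.43 for Cul4a, 1.25 for Cul4b, 1.44 for Ddb1, 1.35 for Vprbp and 1.01 for Rbx1, and no ERCC scaling gave 0.32 for Cul4b, 0.51 for Ddb1, 0.46 for Vprbp and 0.066 for Rbx1. For null GV to MII, median scaling gave 1.03 for Tceb2, 0.068 for Tceb3, 0.32 for Cul2, 0.87 for Cul4a, 0.78 for Cul4b, 0.77 for Vprbp and 1.22 for Rbx1, and no ERCC scaling gave 0.35 for Tceb2, 0.28 for Cul4a, 0.11 for Cul4b, 0.15 for Vprbp and 0.54 for Rbx1. The replicate numbers were not shown to pair the libraries (correlations of same-numbered deviations from -0.12 to 0.16), and the replicate block gave 2 calls in growing oocytes instead of 1 and 4 at GV, as in the fit without it. With the GV numbers crossed, chosen after seeing the data, 4 members were again called at GV. FPKM values carry no counts, so the counting error of low genes such as Vhl is unknown.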

Other observations

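The most abundant mRNA in the growing and GV libraries was an elongin B relative. Gm15698 (chr11:88825972-88828245 in mm9, listed by RefSeq as Elobl and Tceb2l) was looked up after its values were seen. It ranked 1 of 11502 genes in all 8 growing and GV libraries. It measured 7113 and 7328 FPKM in WT growing, 6841 and 6341 FPKM in null growing, 6821 and 6470.5 FPKM in WT GV and 5559 and 5310.2 FPKM in null GV oocytes. The genotype difference did not pass the test at either stage (adjusted p = 0.548 and 0.156, limma). At MII it measured 545 and 662 FPKM in WT and 2209 and 1872 FPKM in null oocytes, 3.38 times as much on the mean (log2 fold change 1.76 ± 0.16, adjusted p = 5.82e-06, limma). Its coding sequence of 486 bases was identical to that of Tceb2 at 275 of 357 aligned bases, 77.0%. In WT MII oocytes, with Tceb2 at 1.66 and 2.22 FPKM, Gm15698 was still the more abundant of the pair.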
